A study of Macaca mulatta with 10 samples.

Results

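Drug-metabolising enzymes were followed through the differentiation of a primate embryonic stem (ES) cell line, as 69 genes out of the 13191 measured. A gene was included if its annotated symbol began with CYP and a digit, or with UGT1, UGT2, SULT, GST, ALDH or ADH followed by a digit or by a letter and a digit. The 69 genes were 33 cytochromes P450 (CYP), 16 aldehyde dehydrogenases (ALDH), 12 glutathione transferases (GST), 4 alcohol dehydrogenases (ADH) and 4 glucuronosyl- or sulfotransferases (UGT, SULT). RNA came from ORMES6, a rhesus macaque ES cell line, and was read on 10 Affymetrix arrays in 5 groups of 2. The groups were undifferentiated ES cells (ES), in vitro differentiation stage 2 (IVDS2), the central foci of colonies at that stage (IVDS2-C), the peripheral area of the same kind of colony (IVDS2-P), and stage 3 (IVDS3). Per the labels, ES cells were kept on mouse embryonic fibroblast (MEF) feeders with serum replacement and basic fibroblast growth factor, and hepatic foci formed after plating with hESdF, which are fibroblast-like cells derived from human ES cells. All groups came from this one line, the labels give "ESC" as the cell type of every array, and they do not say whether feeder or co-cultured cells were removed before RNA extraction or whether the repeats were separate cultures. Each p-value therefore measures only the spread between these arrays, which may be technical.

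Drug metabolism is usually described in steps. P450 enzymes, helped by a reductase and cytochrome b5, insert oxygen into lipophilic compounds, ADH and ALDH enzymes oxidise alcohols and aldehydes, and UGT, SULT and GST enzymes attach glucuronic acid, sulfate or glutathione. In liver, P450 genes are switched by ligand-activated receptors: the aryl hydrocarbon receptor for the CYP1 genes, and the pregnane X and constitutive androstane receptors for CYP3A4. The same families also hold enzymes of steroid, retinoid, vitamin D, cholesterol and fatty acid metabolism, which work in many tissues besides liver.

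The values are differences on the log2 scale. The deposited values of a probe set have a median of 0 over the 10 arrays, so 0 marks that median, no absolute level can be read, and levels of different genes cannot be compared. A gene was called when the adjusted p of the limma test across all genes was under 0.05, and "rose" and "fell" are used only for calls. Fold changes are log2 values ± standard error (SE), and each group is 2 arrays. In bulk RNA, fewer cells of a type and less RNA per cell cannot be told apart. Of the pluripotency list, 7 of 9 measured genes fell in IVDS3 against ES cells and 1, NANOG, rose. Of 13 measured hepatocyte markers, limma called 5 lower and 0 higher (0 higher also at an unadjusted p under 0.05), and the list median was 0.07 and 0.10 in ES cells and -0.09 and -0.04 in IVDS3. Among markers of other cell types in IVDS3 against ES cells, 10 of 11 rose and 1 fell for epithelium. For fibroblasts 7 of 11 rose and 2 fell, and for trophoblast 5 of 7 rose and 1 fell. Of all genes 21.1% rose and 28.6% fell. The part of the markers in the results on the enzymes was not tested. The ES arrays differed most from each other (SD of the replicate difference 0.403, against 0.245 to 0.293 in the other groups). ES replicate 2 held the highest value for 16 of the 31 enzymes called in no comparison, and for 37.1% of all genes called in none.

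As a set, the enzymes moved about as often as other genes, and a few of them moved far. In IVDS3 against ES cells, 14 of 69 rose and 15 fell, where 21.1% of all genes rose and 28.6% fell, and the median was -0.14 for the enzymes and -0.13 for all genes. Changes of at least 1 on the log2 scale were calls for 8 rises and 3 falls, beside 10.6% and 8.81% of all genes. Against ES cells, 5 rose and 4 fell in IVDS2 (6.50% and 6.23% of all genes), 7 rose and 9 fell in IVDS2-C (13.7% and 16.5%), and 4 rose and 2 fell in IVDS2-P (6.31% and 4.67%). These 4 comparisons share the ES arrays. The centre differed from the periphery by 3 rises and 1 fall (5.64% and 3.95%), and IVDS3 from IVDS2 by 14 rises and 11 falls (17.6% and 22.2%). These shares lie near or below those of all genes, so the counts are no result about the enzymes as a set.

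**Figure D1:**
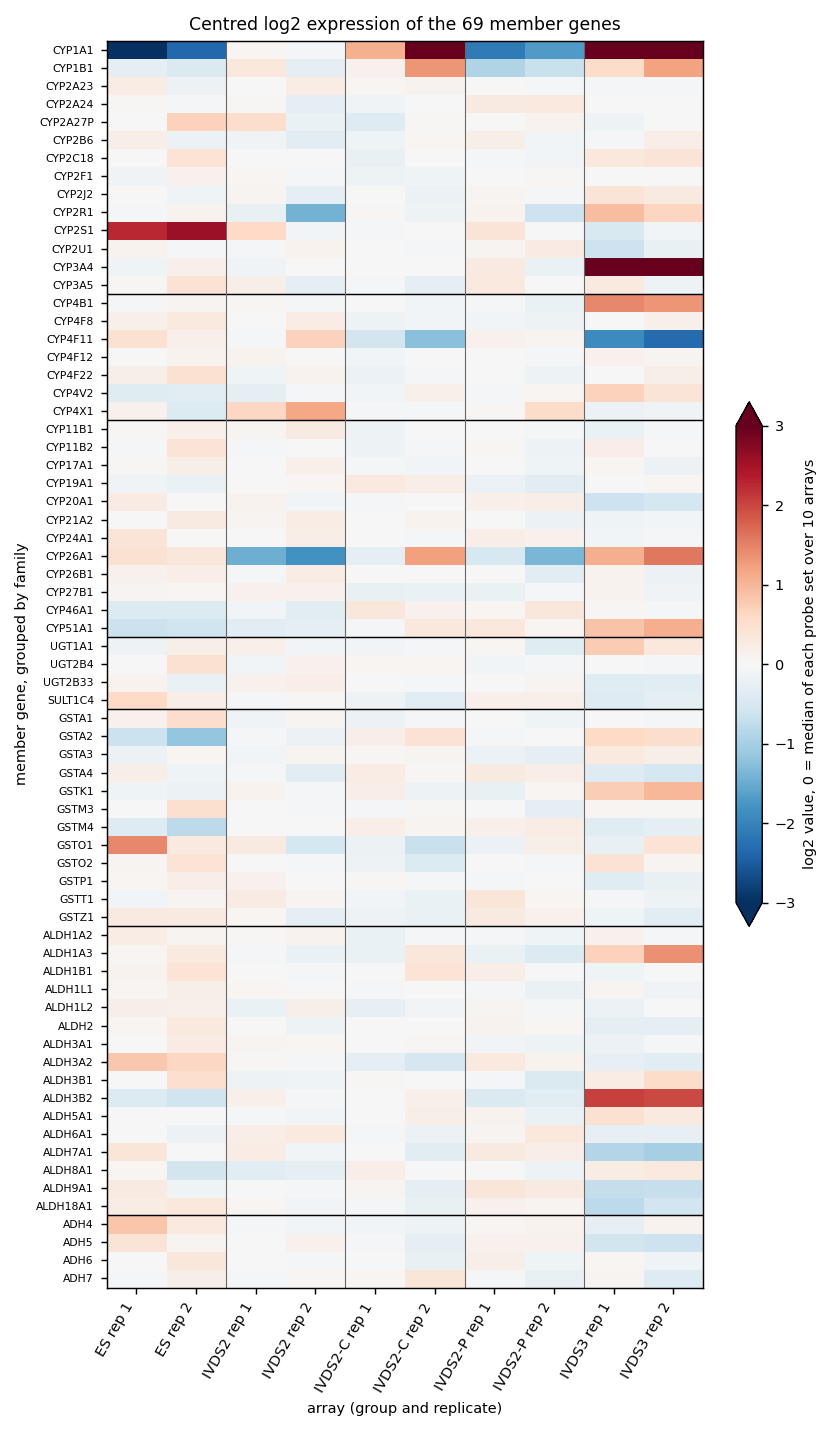
Centred log2 value of each of the 69 enzymes (rows, by family, with lines between families) on each of the 10 arrays (columns), with colours cut off at -3 and 3. Most rows stay pale, while CYP1A1, CYP3A4, CYP2S1, CYP4F11, CYP26A1 and ALDH3B2 carry strong colours in particular groups.

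The counts at stage 2 depended on single arrays. How often the calls of all genes were lost in the same way was not counted. Without ES replicate 2, 0 enzymes rose in IVDS2 and 2 in IVDS2-P, while 1 rose in IVDS2 without either IVDS2 array. The fall count for IVDS2 was 1 without IVDS2 replicate 2. In IVDS2-C, leaving out its replicate 2 left 4 rises and 2 falls, and leaving out either IVDS2-P array left 5 falls. In IVDS2-P, 2 enzymes rose without its replicate 1 and 1 without its replicate 2, 6 fell without ES replicate 1, and 1 fell without either IVDS2-P array or either IVDS3 array. Between centre and periphery, 1 rose without IVDS2-C replicate 2 or IVDS2-P replicate 2, 0 rose without IVDS2-P replicate 1, and the falls went to 0 without IVDS2-C replicate 2 or IVDS2-P replicate 1 and to 2 without either ES or either IVDS2 array or IVDS2-C replicate 1. At stage 3, 9 rose against ES cells without IVDS3 replicate 2, and against IVDS2 9 rose and 5 fell without IVDS3 replicate 1 and 7 fell without IVDS2 replicate 2. Of 89 calls in the 6 comparisons, 39 held whichever array was left out, 18 of them among the 29 of IVDS3 against ES cells.

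CYP1A1, which oxidises polycyclic aromatic hydrocarbons and is the textbook target of the aryl hydrocarbon receptor, had the widest range of the 69 enzymes. CYP1A1 read -3.15 and -2.35 in ES cells, 0.05 and -0.05 in IVDS2, 1.07 and 3.59 in IVDS2-C, -2.12 and -1.69 in IVDS2-P, and 3.45 and 4.35 in IVDS3. The arrays of IVDS3 and IVDS2-C were the highest and overlapped each other, and those of ES cells and IVDS2-P were the lowest without overlapping. Against ES cells CYP1A1 rose 101-fold in IVDS3 (6.65 ± 0.67, adjusted p = 6.02e-05), 33.8-fold in IVDS2-C (5.08 ± 0.67, adjusted p = 0.000835) and 6.73-fold in IVDS2 (2.75 ± 0.67, adjusted p = 0.029). In IVDS2-P the difference was 0.85 (95% interval -0.68 to 2.38, adjusted p = 0.423). The rise in IVDS2 was lost without either ES array or either IVDS2 array (adjusted p of 0.108 and 0.0687 without ES replicate 1 and 2, 0.108 and 0.118 without IVDS2 replicate 1 and 2), while those in IVDS2-C and IVDS3 held whichever array was left out.

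The colony centre stood 18.8-fold above the periphery for CYP1A1 (4.23 ± 0.67, adjusted p = 0.00644), and IVDS3 stood 14.9-fold above IVDS2 (3.90 ± 0.67, adjusted p = 0.00179). The difference between centre and periphery missed the threshold without IVDS2-P replicate 1 (adjusted p = 0.0565) and in a fit of only the 4 arrays compared (adjusted p = 0.0539). The 2 centre arrays themselves lay 2.52 apart. CYP1A1 has 1 probe set on this array, so no other probe set could be set beside it.

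CYP1B1, the other CYP1 enzyme measured, which hydroxylates oestradiol and aromatic hydrocarbons, showed a smaller range. CYP1B1 read -0.26 and -0.44 in ES cells, 0.32 and -0.29 in IVDS2, 0.14 and 1.32 in IVDS2-C, -0.91 and -0.67 in IVDS2-P, and 0.55 and 1.20 in IVDS3. Both centre arrays lay above both ES arrays and both peripheral arrays lay below them. CYP1B1 was higher in the centre than in the periphery (1.52 ± 0.37, adjusted p = 0.0354) and rose in IVDS3 against ES cells (1.22 ± 0.37, adjusted p = 0.0216). All 3 of its probe sets were called between centre and periphery, with differences of 1.41, 1.64 and 1.52. In a fit of only the 4 arrays compared, the gene's difference between centre and periphery was not a call (adjusted p = 0.0876). The centre call was lost without IVDS2-C replicate 2 (adjusted p = 0.224), IVDS2-P replicate 1 (0.18) or IVDS2-P replicate 2 (0.108), and the stage 3 call without ES replicate 1 (0.0539), ES replicate 2 (0.0963) or IVDS3 replicate 2 (0.147).

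Receptors and regulators of these genes were measured for 13 of 16 listed. Calls of genes from this and the later lists were not checked with single arrays left out. AHR itself, which encodes the aryl hydrocarbon receptor, was not analysed here. TIPARP, an ADP-ribosyltransferase whose gene is a target of that receptor, read -1.03 and -0.20 in ES cells, 0.61 and 0.48 in IVDS2, 0.96 and 1.60 in IVDS2-C, -0.16 and 0.16 in IVDS2-P, and -0.83 and -0.52 in IVDS3. The stage 2 arrays other than those of the periphery were the highest. TIPARP rose in IVDS2 against ES cells (1.16 ± 0.29, adjusted p = 0.0299) and was higher in the centre than in the periphery (1.28 ± 0.29, adjusted p = 0.0269). In IVDS3 against IVDS2, where CYP1A1 rose, TIPARP fell (-1.22 ± 0.29, adjusted p = 0.0088), and between IVDS3 and ES cells it differed by -0.06 (95% interval -0.71 to 0.59). AHRR, the repressor of that receptor and another of its targets, named after its value was seen, differed by -0.07 between IVDS3 and ES cells (95% interval -0.29 to 0.14) and was not called in any comparison. In IVDS3 against ES cells 4 of the 13 rose, led by NCOA2, a nuclear receptor coactivator (1.39 ± 0.16, adjusted p = 0.000114), RXRA (0.60 ± 0.18, adjusted p = 0.0221) and RXRB (0.50 ± 0.17, adjusted p = 0.0373), which encode retinoid X receptors, and limma called 0 lower (0 also at an unadjusted p under 0.05). The shares were 30.8% and 0%, beside 21.1% and 28.6% of all genes, and the list median was 0.03, beside -0.13 for all genes.

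**Figure D2:**
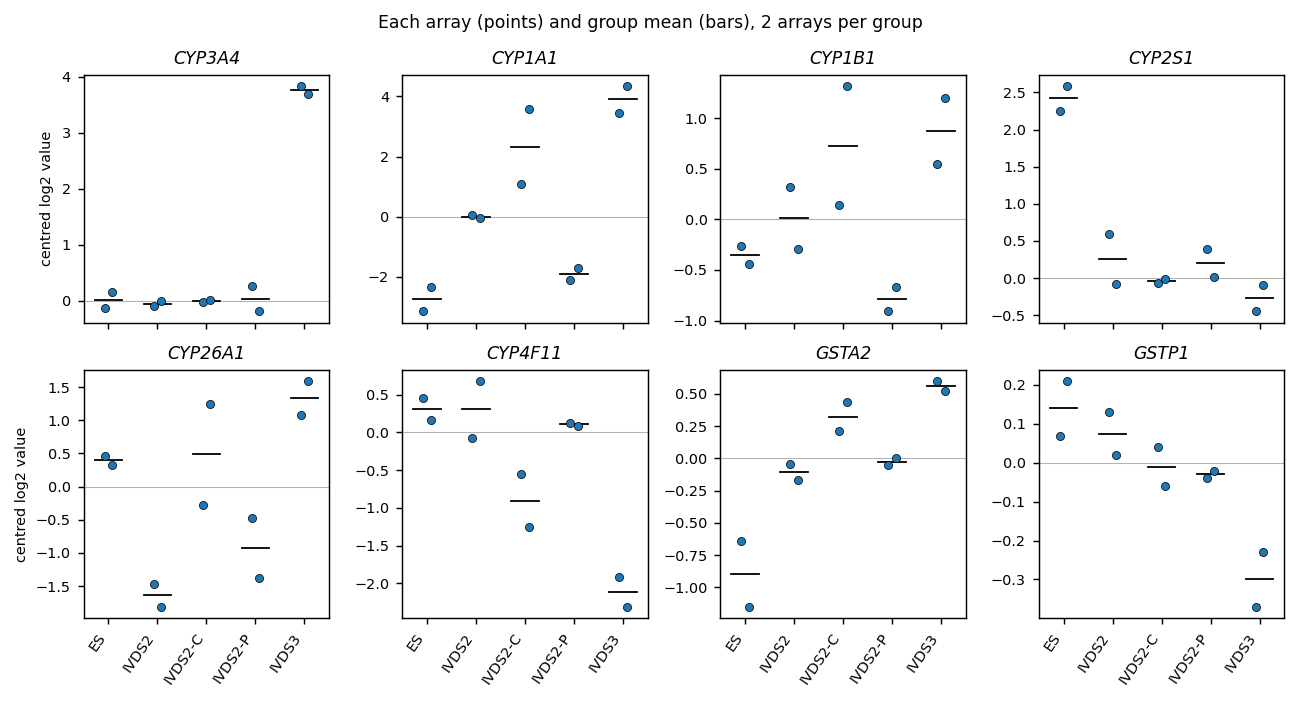
Centred log2 value of 8 enzymes on each array (points) and the mean of each group (bars) in the 5 groups, with a scale of its own in each panel. CYP3A4 is high only on the IVDS3 arrays (3.84 and 3.70), CYP2S1 only on the ES arrays (2.25 and 2.59), and CYP1A1 is spread over all 5 groups.

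CYP3A4, the main drug-oxidising P450 of adult liver and gut, was high at stage 3 and nowhere else. CYP3A4 read -0.13 and 0.15 in ES cells, -0.10 and -0.01 in IVDS2, -0.02 and 0.01 in IVDS2-C, 0.26 and -0.19 in IVDS2-P, and 3.84 and 3.70 in IVDS3. The IVDS3 arrays stood clear of the other 8, which overlapped one another. CYP3A4 rose 13.5-fold in IVDS3 against ES cells (3.76 ± 0.16, adjusted p = 7.66e-07) and 14.2-fold against IVDS2 (3.83 ± 0.16, adjusted p = 9.02e-07), and no single array ended either call. In the stage 2 groups its difference from ES cells was -0.07 (95% interval -0.43 to 0.30) in IVDS2, -0.02 (-0.38 to 0.35) in IVDS2-C and 0.02 (-0.34 to 0.39) in IVDS2-P. CYP3A4 and CYP1A1 thus had different courses before stage 3.

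The rise rested on the 1 probe set that the annotation gives to CYP3A4 alone. A second probe set, which the annotation gives to CYP3A4 and CYP3A5 together, read 0.04 and -0.27 in IVDS3 and differed from ES cells by -0.52 ± 0.22 (adjusted p = 0.0931 over all probe sets). CYP3A5, a close relative with overlapping substrates, has 2 probe sets and was not called in any comparison. Its differences between IVDS3 and ES cells were -0.17 by both probe sets. Near-identical CYP3A transcripts can bind the same probes, so which CYP3A gene gave the signal of the CYP3A4 probe set is uncertain. The constitutive androstane receptor (NR1I3), a known regulator of CYP3A4, rose by 0.41 ± 0.11 in IVDS3 (adjusted p = 0.0137) and was named after its value was seen. The pregnane X receptor (NR1I2), another such regulator named after its value was seen, differed by 0.02 (95% interval -0.26 to 0.29).

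**Figure D3:**
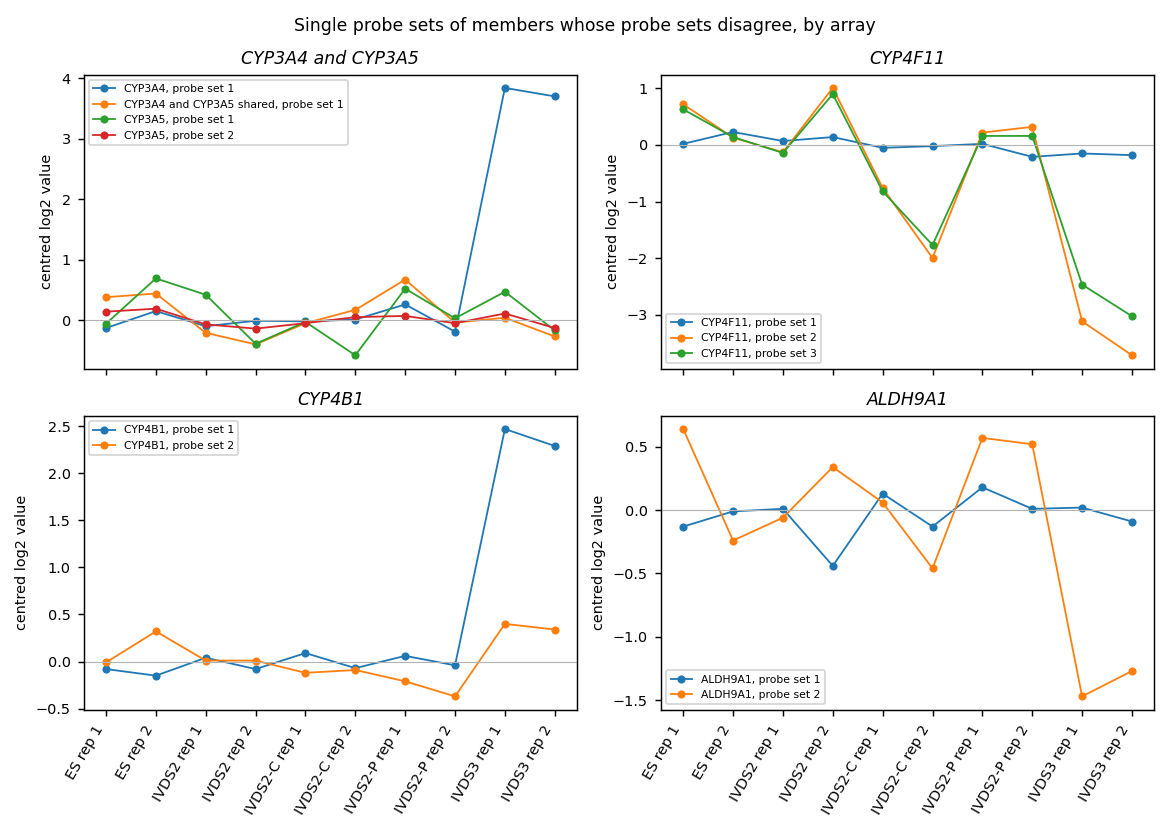
Centred log2 value of every probe set of CYP3A4 and CYP3A5 (with the shared one), CYP4F11, CYP4B1 and ALDH9A1 over the 10 arrays, with lines joining the arrays of a probe set for legibility. In each panel at least 1 probe set stays near 0 in IVDS3 while another moves, as for CYP4B1, where the IVDS3 change is 2.49 by one probe set and 0.21 by the other.

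CYP2S1, a P450 found mostly outside the liver, ran the other way and marked the ES arrays. CYP2S1 read 2.25 and 2.59 in ES cells, 0.60 and -0.08 in IVDS2, -0.07 and -0.01 in IVDS2-C, 0.39 and 0.01 in IVDS2-P, and -0.45 and -0.09 in IVDS3. Both ES arrays lay above all others. CYP2S1 fell by 2.16 ± 0.24 in IVDS2 (adjusted p = 0.000896), 2.46 ± 0.24 in IVDS2-C (0.000202), 2.21 ± 0.24 in IVDS2-P (0.00163) and 2.69 ± 0.24 in IVDS3 (2.97e-05), and all 4 calls held whichever array was left out. Its protein-coding neighbour CYP2F1 (assembly T2T-MMU8v2.0, with no protein-coding gene between them) was not called in any comparison.

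CYP2R1, a liver enzyme that hydroxylates vitamin D, moved between the 2 stages. CYP2R1 read -0.04 and 0.10 in ES cells, -0.22 and -1.41 in IVDS2, 0.04 and -0.15 in IVDS2-C, 0.11 and -0.61 in IVDS2-P, and 0.92 and 0.65 in IVDS3. The IVDS3 arrays were the highest, and IVDS2 replicate 2 was the lowest and stood 1.19 below its replicate. CYP2R1 rose 3.04-fold in IVDS3 against IVDS2 (1.60 ± 0.35, adjusted p = 0.00617), and that call held whichever array was left out. Against ES cells the difference was 0.76 (95% interval -0.04 to 1.55, adjusted p = 0.103), and it was a call without either IVDS2 array (adjusted p = 0.0241 each) and with only the 4 arrays compared (0.00917). Of the other CYP2 genes, CYP2J2, which epoxidises arachidonic acid, rose in IVDS3 (0.39 ± 0.14, adjusted p = 0.0462), and CYP2U1, a fatty acid hydroxylase, fell (-0.45 ± 0.15, adjusted p = 0.0341). The CYP2J2 call was lost without any 1 of 8 arrays (adjusted p from 0.0543 to 0.192), all but those of IVDS2, and the CYP2U1 call without ES replicate 1 (0.123) or IVDS3 replicate 1 (0.244), with arrays centred on their medians (0.0708), with only the 4 arrays compared (0.0898) and by its most variable probe set (-0.26, 0.309). CYP2A23, CYP2A24, CYP2A27P, CYP2B6 and CYP2C18 were not called in any comparison.

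CYP4 enzymes hydroxylate fatty acids and related lipids. Of the 7 measured, 4 were called in at least 1 comparison, beside 7932 of all 13191 genes, so the count is no result about this family. CYP4F11, which acts on long-chain fatty acids and vitamin K, read 0.46 and 0.16 in ES cells, -0.07 and 0.68 in IVDS2, -0.55 and -1.26 in IVDS2-C, 0.13 and 0.09 in IVDS2-P, and -1.92 and -2.31 in IVDS3. The IVDS3 arrays were the lowest, the centre arrays came next, and those of ES cells and the periphery lay within the range of IVDS2. CYP4F11 fell 5.35-fold in IVDS3 (-2.42 ± 0.29, adjusted p = 0.00014) and 2.32-fold in IVDS2-C (-1.21 ± 0.29, adjusted p = 0.0128). The fall in IVDS2-C was lost without ES replicate 1 (adjusted p = 0.0588) or IVDS2-C replicate 2 (0.094). Between centre and periphery it differed by -1.01 ± 0.29 (adjusted p = 0.0587), and this was a call without either IVDS2 array (0.0417 each) or IVDS2-C replicate 1 (0.02). The 3 probe sets disagreed in size: in IVDS3 they changed by -3.84, -3.13 and -0.29, and the third was not called.

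CYP4B1, which also activates some plant and industrial toxins, read -0.04 and 0.09 in ES cells, 0.03 and -0.04 in IVDS2, -0.02 and -0.08 in IVDS2-C, -0.07 and -0.20 in IVDS2-P, and 1.44 and 1.32 in IVDS3. As with CYP3A4, the IVDS3 arrays stood clear of the other 8. CYP4B1 rose 2.56-fold in IVDS3 against ES cells (1.35 ± 0.11, adjusted p = 1.92e-05), from 1 probe set at 2.49 and another at 0.21. CYP4V2, a fatty acid hydroxylase of the retina, rose in IVDS3 as well (0.88 ± 0.15, adjusted p = 0.00111). Of its 2 probe sets 1 was called (1.28) and the other was not (0.48, adjusted p = 0.0639 over all probe sets). CYP4X1 read 0.14 and -0.41 in ES cells, 0.62 and 1.16 in IVDS2, -0.03 and -0.04 in IVDS2-C, 0.03 and 0.54 in IVDS2-P, and -0.18 and -0.10 in IVDS3. The IVDS2 arrays were the highest. CYP4X1 rose in IVDS2 against ES cells (1.03 ± 0.24, adjusted p = 0.0241) and fell in IVDS3 against IVDS2 (-1.03 ± 0.24, adjusted p = 0.00844). The first call was lost without ES replicate 2 (0.128) or IVDS2 replicate 2 (0.161), and the second without IVDS2 replicate 2 (0.0685) or IVDS3 replicate 1 (0.0524). CYP4F8, CYP4F12 and CYP4F22 were not called in any comparison.

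CYP26A1, which clears retinoic acid, fell in whole stage 2 cultures and was higher at stage 3 than in those. CYP26A1 read 0.46 and 0.33 in ES cells, -1.47 and -1.81 in IVDS2, -0.27 and 1.24 in IVDS2-C, -0.48 and -1.37 in IVDS2-P, and 1.08 and 1.59 in IVDS3. The IVDS2 arrays were the lowest, and the IVDS2-C and IVDS3 arrays overlapped. CYP26A1 fell 4.10-fold in IVDS2 against ES cells (-2.04 ± 0.45, adjusted p = 0.0194) and rose 7.87-fold in IVDS3 against IVDS2 (2.98 ± 0.45, adjusted p = 0.000871). The fall was lost without ES replicate 1 (0.0641), ES replicate 2 (0.0766), IVDS2 replicate 1 (0.0575) or IVDS2 replicate 2 (0.115), and the rise held whichever array was left out. Its 2 probe sets differed in IVDS2 against ES cells, at -3.05 (adjusted p = 0.00616 over all probe sets) and -1.02 (0.24, not a call), while both were called in IVDS3 against IVDS2, at 3.73 (0.000586) and 2.23 (0.00615). Whole IVDS2 cultures did not lie between centre and periphery for this gene. Centre and periphery differed by 1.41 ± 0.45 (adjusted p = 0.084), and by 2.17 (0.00579) without IVDS2-C replicate 1. Against ES cells, IVDS3 differed by 0.94 ± 0.45 (adjusted p = 0.113) and IVDS2-P by -1.32 ± 0.45 (0.096), and both became calls without either IVDS2-C array (0.0254 and 0.0248).

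Other genes of retinoid supply and response were measured for 10 of 15 listed, and in IVDS3 against ES cells 6 rose (60%) and 2 fell (20%), beside 21.1% and 28.6% of all genes. The list median was 0.92, against -0.13 for all genes. The 3 largest rises were in RARB, a retinoic acid receptor (1.59 ± 0.24, adjusted p = 0.000545), CRABP1, which binds retinoic acid in the cytoplasm (1.47 ± 0.40, adjusted p = 0.0139), and STRA6, which takes up retinol (1.41 ± 0.25, adjusted p = 0.00146). The falls were in CRABP2 (-0.56 ± 0.19, adjusted p = 0.0322) and the retinol carrier RBP4 (-0.50 ± 0.11, adjusted p = 0.00388). Between centre and periphery 2 of the 10 were higher in the centre, STRA6 (1.25 ± 0.25, adjusted p = 0.0171) and the retinaldehyde reductase DHRS3 (1.01 ± 0.17, adjusted p = 0.00891). The list says how often its genes were called and no more.

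CYP51A1, the lanosterol demethylase of cholesterol synthesis, read -0.65 and -0.60 in ES cells, -0.35 and -0.29 in IVDS2, -0.06 and 0.31 in IVDS2-C, 0.31 and 0.06 in IVDS2-P, and 0.85 and 1.08 in IVDS3. The ES arrays were the lowest, the IVDS3 arrays the highest, and centre and periphery overlapped. CYP51A1 rose 3.01-fold in IVDS3 against ES cells (1.59 ± 0.15, adjusted p = 4.42e-05), by 1.70 and 1.48 on its 2 probe sets. It also rose in IVDS2-C (0.75 ± 0.15, adjusted p = 0.00661) and IVDS2-P (0.81 ± 0.15, adjusted p = 0.0123), and in IVDS2 it differed by 0.31 (95% interval -0.04 to 0.65). The IVDS2-C call was lost without IVDS2-C replicate 2 (0.0552), and the IVDS2-P call without ES replicate 2 (0.0556) or IVDS2-P replicate 1 (0.0747).

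Smaller changes were found in 3 more P450 enzymes of this group. CYP46A1, which hydroxylates cholesterol in neurons, rose in IVDS2-C (0.64 ± 0.14, adjusted p = 0.00819), IVDS2-P (0.63 ± 0.14, 0.0225) and IVDS3 (0.42 ± 0.14, 0.0309), and single arrays ended each call. The IVDS2-C call was lost without IVDS2-C replicate 1 (0.0506), the IVDS2-P call without ES replicate 2 (0.0845) or IVDS2-P replicate 2 (0.175), and the IVDS3 call without any ES or IVDS3 array (0.0716 to 0.126). CYP19A1, the aromatase that makes oestrogens, was higher in the centre than in ES cells (0.40 ± 0.11, adjusted p = 0.0215) and than in the periphery (0.49 ± 0.11, adjusted p = 0.0239). The first call was lost without ES replicate 2 (0.0654) or either centre array (0.115 and 0.0632), and the second without any 1 of the 4 arrays compared (0.083 to 0.136). CYP20A1, a P450 without a settled substrate, fell in IVDS3 (-0.70 ± 0.12, adjusted p = 0.0013). The adrenal steroid enzymes CYP11B1, CYP11B2, CYP17A1 and CYP21A2, the vitamin D enzymes CYP24A1 and CYP27B1, and CYP26B1, the second retinoic acid hydroxylase measured, were not called in any comparison.

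Conjugating enzymes of the UGT and SULT families were few, and their changes were small. SULT1C4, a sulfotransferase, fell in IVDS2-C (-0.63 ± 0.14, adjusted p = 0.00926) and IVDS3 (-0.73 ± 0.14, adjusted p = 0.00198) against ES cells. UGT2B33 fell in IVDS3 against IVDS2 (-0.51 ± 0.12, adjusted p = 0.0104). The SULT1C4 call in IVDS2-C was lost without IVDS2-C replicate 2 (0.0735), and the UGT2B33 call without IVDS2 replicate 2 (0.061) or IVDS3 replicate 1 (0.0661). UGT1A1, which conjugates bilirubin, differed by 0.52 between IVDS3 and ES cells and was not a call (adjusted p = 0.0541). It became one with arrays centred on their medians (0.032), with only the 6595 genes of higher SD (0.0458), and without ES replicate 2 (0.0453), either IVDS2-P array (0.0483 each) or IVDS3 replicate 2 (0.0277). UGT2B4, which conjugates bile acids, was not called either.

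GSTA2, an alpha-class transferase abundant in liver, was higher than in ES cells in every differentiated group. GSTA2 read -0.64 and -1.15 in ES cells, -0.04 and -0.17 in IVDS2, 0.21 and 0.44 in IVDS2-C, -0.05 and 0.00 in IVDS2-P, and 0.60 and 0.52 in IVDS3. The ES arrays lay below all others, and centre and IVDS3 arrays lay above the rest without overlapping them. GSTA2 rose by 1.46 ± 0.17 in IVDS3 (2.75-fold, adjusted p = 0.000119), 1.22 ± 0.17 in IVDS2-C (0.00097), 0.87 ± 0.17 in IVDS2-P (0.0132) and 0.79 ± 0.17 in IVDS2 (0.0163). Its 2 probe sets changed by 1.47 and 1.44 in IVDS3. The calls in IVDS3 and IVDS2-C held whichever array was left out. That in IVDS2 was lost without ES replicate 2 (0.0558), IVDS2 replicate 1 (0.0855) or IVDS2 replicate 2 (0.0599), and that in IVDS2-P without IVDS2-P replicate 1 (0.0534) or 2 (0.0962). GSTA1, its neighbour in assembly T2T-MMU8v2.0, was not called in any comparison, and sequences of this family are alike, so the split of signal between them is uncertain.

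GSTP1, the pi-class transferase of most tissues other than adult hepatocytes, moved little. GSTP1 read 0.07 and 0.21 in ES cells, 0.13 and 0.02 in IVDS2, 0.04 and -0.06 in IVDS2-C, -0.04 and -0.02 in IVDS2-P, and -0.37 and -0.23 in IVDS3. The IVDS3 arrays were the lowest. GSTP1 fell 1.36-fold in IVDS3 against ES cells (-0.44 ± 0.11, adjusted p = 0.00939), and the call was lost without IVDS3 replicate 1 (0.0735). GSTK1, the kappa-class transferase of mitochondria and peroxisomes, read -0.12 and -0.17 in ES cells, 0.10 and -0.06 in IVDS2, 0.21 and -0.15 in IVDS2-C, -0.22 and 0.06 in IVDS2-P, and 0.74 and 1.00 in IVDS3. The IVDS3 arrays were clear of the rest. GSTK1 rose 2.03-fold in IVDS3 (1.02 ± 0.16, adjusted p = 0.000752), and the call held whichever array was left out.

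GSTO1, an omega-class enzyme that reduces dehydroascorbate, read 1.44 and 0.30 in ES cells, 0.26 and -0.53 in IVDS2, -0.17 and -0.67 in IVDS2-C, -0.18 and 0.17 in IVDS2-P, and -0.22 and 0.40 in IVDS3. ES replicate 1 stood 1.14 above its replicate. GSTO1 fell in IVDS2-C against ES cells (-1.29 ± 0.40, adjusted p = 0.0382), and the call was lost without ES replicate 1 (0.182), IVDS2-C replicate 2 (0.193) or either IVDS2-P array (0.0516 each). Its neighbour GSTO2 fell in the same comparison (-0.53 ± 0.16, adjusted p = 0.0375), a call lost without ES replicate 2 (0.179), IVDS2-C replicate 2 (0.213), either IVDS2 array (0.0529) or either IVDS2-P array (0.0569). GSTM4, a mu-class enzyme, rose in IVDS2 (0.59 ± 0.14, adjusted p = 0.0241), IVDS2-C (0.73 ± 0.14, 0.00469) and IVDS2-P (0.78 ± 0.14, 0.00874) and differed by 0.27 (95% interval -0.04 to 0.58) in IVDS3. The GSTM4 call in IVDS2 was lost without ES replicate 2 (0.0798) or either IVDS2 array (0.0956 and 0.108), and that in IVDS2-P without IVDS2-P replicate 2 (0.0776). Without ES replicate 1 its difference in IVDS3 was a call (0.47, 0.0113). The maleylacetoacetate isomerase GSTZ1 (-0.50 ± 0.14, adjusted p = 0.0144) and GSTA4, which conjugates products of lipid peroxidation (-0.47 ± 0.15, adjusted p = 0.0259), fell in IVDS3. Of the 3 probe sets of GSTZ1, 2 were called there (-0.53 and -0.82) and the other was not (-0.15, adjusted p = 0.387 over all probe sets). The GSTZ1 call was lost without IVDS3 replicate 2 (0.101), and the GSTA4 call without ES replicate 1 (0.12), IVDS3 replicate 1 (0.0564) or IVDS3 replicate 2 (0.138) and with arrays centred on their medians (0.0506). GSTZ1 also fell in IVDS2-C against ES cells (adjusted p = 0.0381). That call was lost in a fit of only the 4 arrays compared (0.0771) and when single arrays were left out. GSTA3, GSTM3 and GSTT1 were not called in any comparison.

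**Figure D4:**
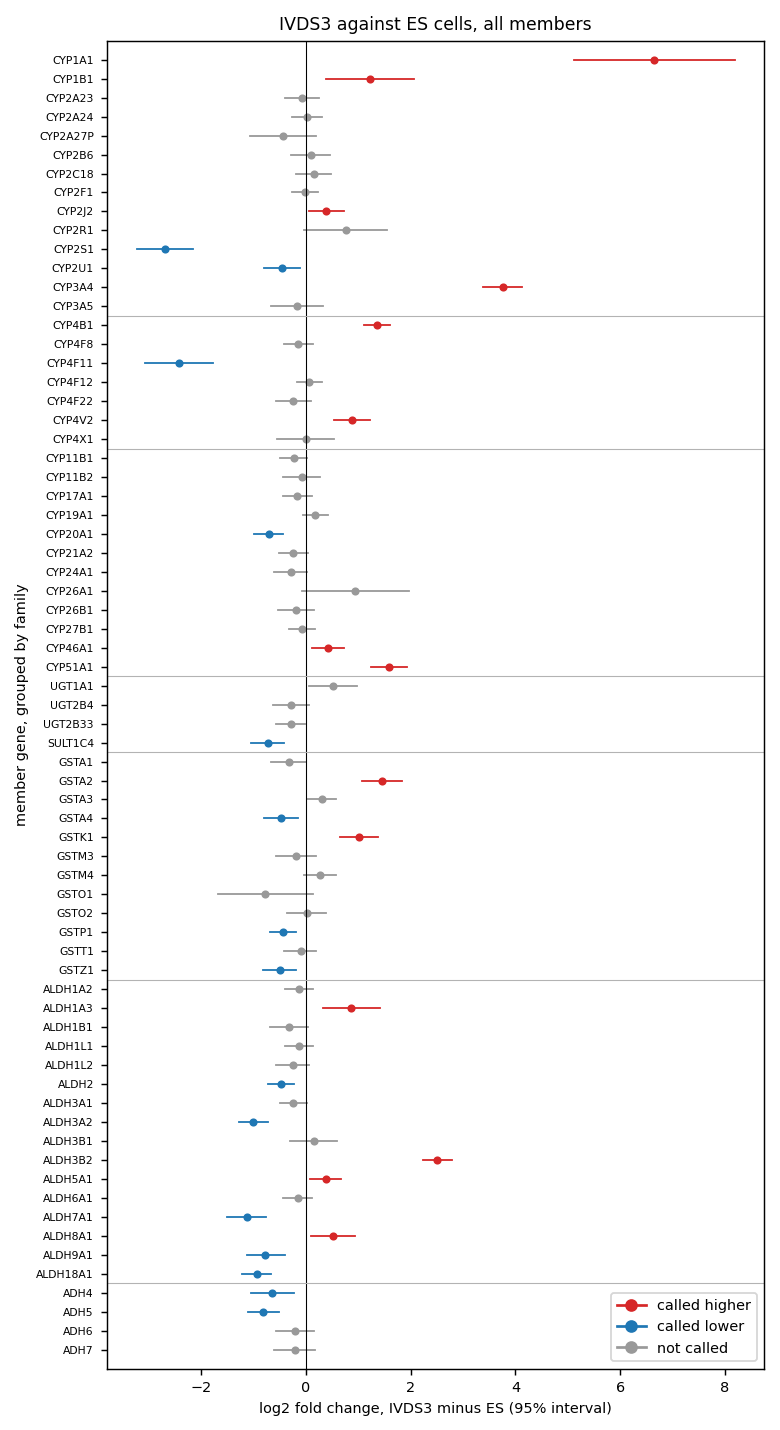
Log2 fold change of each of the 69 enzymes in IVDS3 minus ES cells (points) with its 95% interval (lines), by family, coloured by whether limma called it higher, lower or not at all. CYP1A1 (6.65), CYP3A4 (3.76) and ALDH3B2 (2.51) lie farthest right, and CYP2S1 (-2.69) and CYP4F11 (-2.42) farthest left.

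Of the 16 aldehyde dehydrogenases, 4 rose (25%) and 5 fell (31.2%) in IVDS3 against ES cells, near the 21.1% and 28.6% of all genes. ALDH3B2 read -0.42 and -0.59 in ES cells, 0.16 and -0.04 in IVDS2, -0.01 and 0.16 in IVDS2-C, -0.44 and -0.33 in IVDS2-P, and 2.05 and 1.97 in IVDS3. The IVDS3 arrays stood clear of the rest, and ES and peripheral arrays were the lowest. ALDH3B2 rose 5.71-fold in IVDS3 (2.51 ± 0.12, adjusted p = 1.58e-06), by 3.53 and 1.49 on its 2 probe sets, and the call held whichever array was left out. It rose less in IVDS2 (0.57 ± 0.12, adjusted p = 0.0186) and IVDS2-C (0.58 ± 0.12, adjusted p = 0.00828). These rises came from 1 of the 2 probe sets, at 1.04 in both groups, while the other read 0.10 (adjusted p = 0.763 over all probe sets) in IVDS2 and 0.11 (0.599) in IVDS2-C. The IVDS2 call was lost without ES replicate 2 (0.079) or IVDS2 replicate 1 (0.108), and the IVDS2-C call without IVDS2-C replicate 2 (0.0725).

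ALDH1A3, which makes retinoic acid from retinaldehyde, read 0.05 and 0.29 in ES cells, -0.05 and -0.20 in IVDS2, -0.20 and 0.35 in IVDS2-C, -0.19 and -0.41 in IVDS2-P, and 0.69 and 1.38 in IVDS3. The IVDS3 arrays were the highest. ALDH1A3 rose 2.23-fold against IVDS2 (1.16 ± 0.24, adjusted p = 0.0051), which held whichever array was left out, and 1.83-fold against ES cells (0.87 ± 0.24, adjusted p = 0.0158). The rise over ES cells was lost without ES replicate 1 (0.0765) or IVDS3 replicate 2 (0.124). ALDH1A2, which carries out the same reaction, was not called in any comparison. ALDH5A1, of the breakdown of the transmitter GABA (0.38 ± 0.13, adjusted p = 0.0399), and ALDH8A1 (0.51 ± 0.19, adjusted p = 0.0475) rose in IVDS3. The ALDH5A1 call was lost without any 1 array of ES, IVDS2 or IVDS3 (0.0569 to 0.196), and the ALDH8A1 call without any 1 array other than ES replicate 1 (0.0555 to 0.275).

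ALDH3A2, the dehydrogenase of long-chain fatty aldehydes, was lower than in ES cells in every differentiated group. ALDH3A2 read 0.81 and 0.62 in ES cells, 0.04 and -0.04 in IVDS2, -0.30 and -0.50 in IVDS2-C, 0.30 and 0.11 in IVDS2-P, and -0.25 and -0.31 in IVDS3. The ES arrays were the highest, and centre and periphery did not overlap. ALDH3A2 fell by 1.12 ± 0.12 in IVDS2-C (adjusted p = 0.000356), 1.00 ± 0.12 in IVDS3 (0.000183), 0.71 ± 0.12 in IVDS2 (0.0063) and 0.51 ± 0.12 in IVDS2-P (0.0323). It was lower in the centre than in the periphery (-0.61 ± 0.12, adjusted p = 0.0194), by -0.62, -0.58 and -0.62 on its 3 probe sets. The calls in IVDS2-C and IVDS3 held whichever array was left out. That in IVDS2 was lost without IVDS2 replicate 2 (0.0511), and that between centre and periphery without IVDS2-C replicate 2 (0.171) or IVDS2-P replicate 1 (0.138). The IVDS2-P call was lost without any 1 of 6 arrays, at adjusted p of 0.0665 and 0.0504 without ES replicate 1 and 2, 0.0623 and 0.218 without its own replicate 1 and 2, and 0.0585 without either IVDS3 array. The number of enzymes called against ES cells in all 4 groups, comparisons that share the ES arrays, is no result about the set. These enzymes were CYP2S1, GSTA2 and ALDH3A2. Of these only CYP2S1 kept all 4 calls whichever array was left out, and the share of all genes so called was not counted.

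ALDH7A1, an enzyme of lysine breakdown, read 0.36 and 0.02 in ES cells, 0.23 and -0.08 in IVDS2, 0.00 and -0.31 in IVDS2-C, 0.28 and 0.20 in IVDS2-P, and -0.89 and -1.00 in IVDS3. The IVDS3 arrays were clear of the rest. ALDH7A1 fell 2.19-fold in IVDS3 against ES cells (-1.13 ± 0.16, adjusted p = 0.00045), and the call held whichever array was left out. ALDH18A1, of proline synthesis (-0.94 ± 0.12, adjusted p = 0.000227), ALDH9A1, of carnitine synthesis (-0.77 ± 0.16, adjusted p = 0.00393), and ALDH2, the mitochondrial enzyme that oxidises acetaldehyde (-0.48 ± 0.11, adjusted p = 0.00724), fell in the same comparison. For ALDH9A1 the fall came from 1 of its 2 probe sets (-1.57, against 0.04 for the other). For ALDH2, 1 of 2 probe sets was called (-0.64) and the other was not (-0.31, adjusted p = 0.0771 over all probe sets). ALDH6A1, of valine breakdown, fell in IVDS3 against IVDS2 (-0.48 ± 0.12, adjusted p = 0.0124), and either IVDS3 array (0.0637 and 0.0577) or IVDS2 replicate 2 (0.0783) ended that call when left out. Its 4 probe sets did not all move together. In IVDS3 against IVDS2 those at -0.73, -0.81 and -0.69 were called lower. The other was not called (0.32, adjusted p = 0.0881 over all probe sets). In IVDS3 against ES cells 1 was called higher (0.37) and 1 lower (-0.40).

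Of the 4 alcohol dehydrogenases, ADH5, which oxidises the glutathione adduct of formaldehyde, fell in IVDS3 against ES cells (-0.81 ± 0.13, adjusted p = 0.000909), and the call held whichever array was left out. ADH4, an ethanol- and retinol-oxidising enzyme of liver, fell in IVDS2 (-0.65 ± 0.18, adjusted p = 0.047), IVDS2-C (-0.69 ± 0.18, 0.0193) and IVDS3 (-0.64 ± 0.18, 0.0162). The IVDS2 call was lost without any 1 array other than ES replicate 2 (0.054 to 0.178), with the replicate block (0.0594), with arrays centred on their medians (0.063) and with only the 4 arrays compared (0.128). The IVDS2-C call was lost without ES replicate 1 (0.069) or either centre array (0.0528 and 0.0994), and the IVDS3 call without ES replicate 1 (0.0773) or IVDS3 replicate 1 (0.123). ADH6 and ADH7 were not called in any comparison.

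Enzymes that work beside these families were described from lists. Of electron donors and other phase 1 enzymes, 20 of 31 listed were measured, and in IVDS3 against ES cells 5 rose (25%) and 6 fell (30%), close to the 21.1% and 28.6% of all genes. The list median was -0.11, against -0.13 for all genes. The largest rises were in the flavin monooxygenase FMO4 (1.63 ± 0.13), cytochrome b5 (CYB5A, 1.50 ± 0.20) and the carbonyl reductase CBR3 (0.81 ± 0.19), and the largest falls in the quinone reductase NQO2 (-2.26 ± 0.20), the soluble epoxide hydrolase EPHX2 (-1.45 ± 0.16) and the ferredoxin reductase FDXR (-1.01 ± 0.11). Cytochrome b5, which passes electrons to P450 enzymes, read 0.04 and 0.63 in ES cells and 1.67 and 2.01 in IVDS3. Between centre and periphery EPHX1, the microsomal epoxide hydrolase, was higher in the centre (0.97 ± 0.18, adjusted p = 0.014) and EPHX2 lower (-0.59 ± 0.16, adjusted p = 0.0495).

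Of other conjugation enzymes and cofactor suppliers, 19 of 28 listed were measured, and in IVDS3 against ES cells 3 rose (15.8%) and 11 fell (57.9%), beside 21.1% and 28.6% of all genes. The list median was -0.45, against -0.13 for all genes. The rises were in GGT1, which begins the breakdown of glutathione conjugates (0.82 ± 0.18), UGDH, which makes the sugar donor of UGT enzymes (0.41 ± 0.15), and the microsomal transferase MGST3 (0.36 ± 0.11). The largest falls were in UGT8, which makes galactosylceramide (-3.57 ± 0.29), UGT3A1 (-1.71 ± 0.28) and MGST1 (-1.47 ± 0.13). UGT8 read 1.87 and 2.52 in ES cells and -1.14 and -1.61 in IVDS3. Between centre and periphery 2 were higher in the centre, the sugar-nucleotide transporter SLC35D1 (1.07 ± 0.23, adjusted p = 0.024) and GGT1 (0.91 ± 0.18, adjusted p = 0.0157), and 2 lower, UGT8 (-1.31 ± 0.29, adjusted p = 0.0273) and MGST2 (-0.95 ± 0.16, adjusted p = 0.00891).

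Colony topology and stage were compared without shared arrays, as the difference of centre and periphery and that of IVDS3 and IVDS2. CYP1A1 was the enzyme called in both, higher in the centre and higher in IVDS3. CYP1B1, CYP19A1 and ALDH3A2 were called between centre and periphery and not between stages, where they differed by 0.86 (95% interval 0.03 to 1.70, adjusted p = 0.0944), 0.01 (0.957) and -0.28 (0.103). The CYP1B1 stage difference became a call without either IVDS2-C array (0.0268 each), and that of ALDH3A2 by its most variable probe set (-0.40, 0.0449). CYP3A4 differed by -0.04 between centre and periphery, which was not a call, and by 3.83 between stages. Whether these genes respond differently in the 2 comparisons was not tested. Across the 69 genes the differences correlated with r = 0.69, with r = 0.59 over the 68 without CYP1A1 and with r = 0.50 over the 67 without CYP1A1 and CYP26A1, where all genes gave r = 0.61. These correlations are across genes measured on the same arrays and are given as a description. Markers of other cells moved with the same 2 comparisons. Against the periphery, 7 of 11 epithelial, 5 of 7 trophoblast and 4 of 11 fibroblast markers were higher in the centre. Lower in the centre were 5 of 9 pluripotency markers and 1 fibroblast marker, THY1. Of 13 hepatocyte markers 1 was lower in the centre, HP (-1.52), and limma called 0 higher. Of all genes 5.64% were higher and 3.95% lower there. The part of the markers in the differences among the enzymes was not tested.

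**Figure D5:**
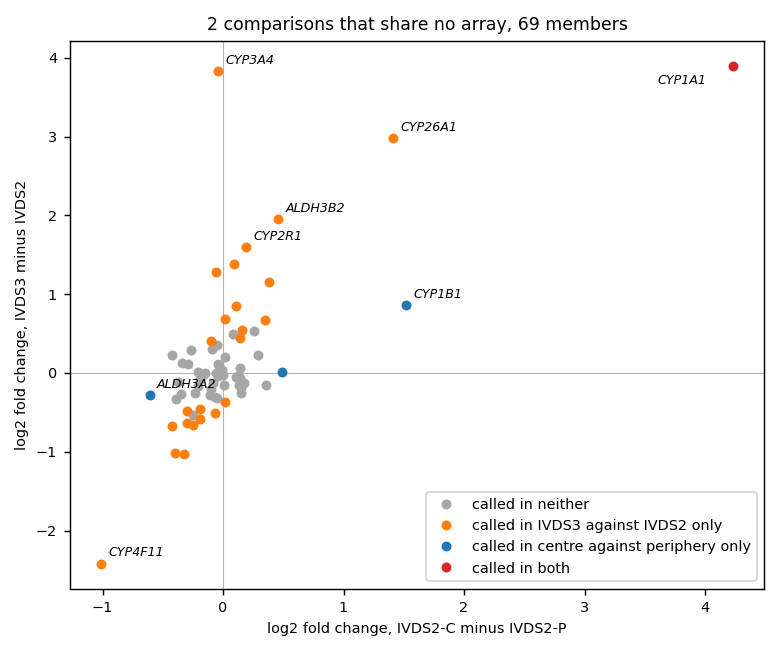
Log2 fold change of IVDS2-C minus IVDS2-P (horizontal axis) against that of IVDS3 minus IVDS2 (vertical axis) for the 69 enzymes, coloured by the comparison in which limma called them. CYP1A1 is far out on both axes (4.23 and 3.90), while CYP3A4 (-0.04 and 3.83) is far out on the vertical axis alone.

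Whole IVDS2 cultures read between centre and periphery for 29 of the 69 enzymes (42.0%), beside 38.2% of all genes. Among the 38 enzymes called in at least 1 comparison, the highest group mean was that of IVDS3 for 16, ES cells for 11, IVDS2-P for 6, IVDS2 for 3 and IVDS2-C for 2. Those of IVDS3 and ES cells are 42.1% and 28.9%, beside 32.1% and 36.6% of the 7932 genes called at least once. IVDS3 also held the lowest mean for 16 of the 38 (42.1%, beside 47.0% of those genes). By the mean of their probe sets, the 31 enzymes called in none differed by at most 0.53 between any groups compared. The largest difference was that of ALDH3B1 between IVDS3 and IVDS2. Besides those named above, these enzymes were ALDH1B1, ALDH1L1, ALDH1L2 and ALDH3A1. Single probe sets of some were called. They were 1 of CYP2B6 in IVDS3 against IVDS2 (1.0, adjusted p = 0.0369 over all probe sets), and in IVDS3 against ES cells 1 of GSTA3 (0.56, 0.0159) and 1 of ALDH1L2 (-0.51, 0.0356). Of the 24 enzymes with several probe sets, 5 had probe sets whose IVDS3 changes lay at least 1 apart.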

How the data were processed

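The deposited values are log2 expression values; per the submitters' processing notes the authors used RMA, with no version. The log base was inferred from the values, whose widest span for 1 probe set was 9.51. Every probe set has a median of 0 over the 10 arrays (at most 5e-07 in size). No genome build or depth applies to them, and the number of arrays limits the precision. From 44294 probe sets, 84 manufacturer's controls were left out, and 22802 were assigned to 1 gene by the platform annotation. Their mean per gene gave 13191 genes, and the 69 enzymes had 101 such probe sets (1 each for 45 enzymes). All 69 matched RefSeq (T2T-MMU8v2.0) with 0 names changed. CYP2A27P is annotated as a pseudogene.

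A linear model with 5 group means was fitted to all 10 arrays (limma 3.58.1 under R 4.3.3), moderated by empirical Bayes (5 residual and 3.94 prior degrees of freedom) and tested two-sided, with Benjamini-Hochberg adjustment over 13191 genes within each of 6 comparisons. The fit was checked on simulated data. Each probe set was tested in the same way for the values given per probe set.

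The enzymes, pathway lists and marker lists were chosen with earlier results of these data known. Values on every array are given for CYP3A4, CYP1A1, GSTA2, GSTP1 and enzymes called in at least 1 comparison with a log2 change of at least 1 and arrays that do not overlap. Other enzymes are given by fold change or as not called. Up to 3 called genes per direction are named from each pathway list for IVDS3 against ES cells and for centre against periphery; NR1I2 and NR1I3, the per-array values of list genes, CYP19A1 and TIPARP's other comparisons were added after values were seen. The alternatives were arrays centred on their medians, a replicate block, each array left out, a fit of only the 4 arrays compared, a gene's most variable probe set in place of the mean, and only the 6595 genes of higher SD. Calls of genes from the pathway and marker lists were not checked under these alternatives. Some genes were withheld and are not analysed here.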

Additional observations from a re-analysis of the deposited data

Results flagged for a closer look

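For CYP1B1 the colony centre and periphery lay on opposite sides of ES cells, with both centre arrays above and both peripheral arrays below both ES arrays. The difference between centre and periphery was 1.52 ± 0.37 (limma, adjusted p = 0.0354), from 1.08 above and 0.44 below the ES mean. Neither difference from ES cells was a call (adjusted p = 0.0548 and 0.442). The call between centre and periphery was lost without IVDS2-C replicate 2, IVDS2-P replicate 1 or IVDS2-P replicate 2 (adjusted p of 0.224, 0.18 and 0.108).

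CYP19A1 had its centre mean 0.40 above and its peripheral mean 0.09 below that of ES cells, and centre and periphery differed by 0.49 ± 0.11 (limma, adjusted p = 0.0239). The peripheral and ES arrays overlapped. The call was lost without any 1 of the 4 arrays compared (adjusted p from 0.083 to 0.136) and in a fit of those 4 arrays alone (0.073).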

How the results depend on the processing

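No fold change of a named enzyme changed sign where it was a call in the main fit or in an alternative. Fold changes called in neither were not checked for sign. In a fit of only the 4 arrays compared, the rises were 1 in IVDS2, 1 in IVDS2-P and 0 between centre and periphery, and the falls 3 in IVDS2-C and 0 between centre and periphery. With only the 6595 genes of higher SD the falls were 2 between centre and periphery and 7 in IVDS3 against IVDS2. With 1 array left out, rises and falls ranged over 0 to 5 and 1 to 5 in IVDS2, 4 to 8 and 2 to 11 in IVDS2-C, 1 to 5 and 1 to 6 in IVDS2-P, 9 to 13 and 11 to 18 in IVDS3, 0 to 4 and 0 to 2 between centre and periphery, and 9 to 16 and 5 to 14 in IVDS3 against IVDS2. A lone array is assumed to vary like the other groups, and the causes were not tested.

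With the replicate number as a block, rises and falls were 5 and 3 in IVDS2, 7 and 10 in IVDS2-C, 4 and 2 in IVDS2-P, 14 and 15 in IVDS3, 3 and 1 between centre and periphery, and 14 and 12 in IVDS3 against IVDS2. The fall lost in IVDS2 was that of ADH4 (adjusted p = 0.0594), and the falls gained were those of CYP4F22 in IVDS2-C and CYP11B1 in IVDS3 against IVDS2. Same-numbered arrays of 2 groups had deviations that correlated from -0.119 (ES and IVDS2) to 0.254 (IVDS2 and IVDS2-P). Between differentiated groups all correlations were positive, from 0.0715 up, with 0.23 for centre and periphery and 0.201 for IVDS2 and IVDS3. These values do not settle whether the numbers are pairs, and the main fit did not take them as pairs. With ES numbers crossed, an alternative chosen after seeing the data, IVDS2 had 5 rises and 4 falls.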
